A study of Arabidopsis thaliana with 8 samples.

Results

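The peaks described here are the 513 H2B-GFP peaks that were found in replicate 1 and that touched no peak of replicate 2. They were chosen by position alone: an interval of the replicate 1 list on chromosomes 1 to 5 was kept when no interval of the replicate 2 list shared 1 bp or more with it. The replicate 1 list held 1361 such intervals, so the 513 made up 37.7% of it, and the other 848 overlapped a replicate 2 peak. The replicate 2 list was longer, with 8608 intervals, and the 4 lists of the series held 10137 intervals in all. Below, the 513 are called replicate 1 only peaks and the 848 shared peaks.

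The study was a chromatin immunoprecipitation followed by sequencing (ChIP-seq) in Arabidopsis thaliana, made from whole seedlings 7 days after germination. The H2B line was Col-0/p35S::AtH2B-GFP, a wild-type accession in which the histone H2B was fused to green fluorescent protein and driven by the 35S promoter of cauliflower mosaic virus, which is active in most tissues and is not the histone's own promoter. The GBPL3 line was gbpl3-5/pAtGBPL3::AtGBPL3genomic-GFP (comp2), in which the genomic sequence of a guanylate-binding protein-like GTPase was fused to the same tag, under its own promoter, in the gbpl3-5 mutant. Both fusions were pulled down with GFP-Trap agarose, with 2 replicates and matching input samples for each line, and the inputs, which came with no peak list, are not analysed here. All samples therefore carried a GFP fusion, and the lines differed in the tagged protein, its promoter and the genetic background together. Whether the replicates were grown as separate cultures is not stated in the labels.

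H2B is one of the core histones, around which DNA is wrapped in nucleosomes along nearly the whole genome. A peak of tagged H2B is thus a place where more fragments were recovered than the local background would give, and not the boundary of a bound site as for a transcription factor. In Arabidopsis the chromosome arms are rich in genes, whereas the regions around the centromeres hold many pseudogenes and transposons in dense heterochromatin. The genes for ribosomal RNA (rRNA) lie mostly in long tandem arrays, of which a reference genome holds only a few copies.

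Each peak came with a fold enrichment and a −log10 q value, both computed by the authors' peak caller. The fold of the replicate 1 only peaks had a median of 1.86, with quartiles at 1.75 and 1.97 and a range from 1.17 to 3.01. Their −log10 q had a median of 2.01 and a range from 1.3 to 41.2. These are low values: 256 of the 513 peaks (49.9%) lay below a −log10 q of 2. The shared peaks were only slightly higher, with a median fold of 1.89 and a median −log10 q of 2.32, and 302 of them (35.6%) lay below a −log10 q of 2. Width separated the sets more than fold did. The replicate 1 only peaks had a median width of 321 bp (quartiles 275 and 393, widest 837), against 398 bp (quartiles 306 and 534, widest 2538) for the shared peaks. Only 24 of them (4.68%) carried more than 1 summit, against 196 of the shared peaks (23.1%). A wider peak has more bases that could meet a replicate 2 peak, and the rule counts a single shared base, so width is tied to the choice and is given as a description. Of the 686 replicate 1 peaks no wider than the median of 358 bp, 337 (49.1%) had no replicate 2 peak. Of the 675 wider peaks, 176 (26.1%) had none.

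Many replicate 1 only peaks lay close to a replicate 2 peak. The gap to the nearest replicate 2 peak had a median of 1745 bp, with quartiles at 406 and 6127 bp. It was at most 500 bp for 142 peaks (27.7%), at most 1 kb for 207 (40.4%), and more than 50 kb for 8 (1.56%). The peaks nearest to the limit of the rule were those in ABCF4 (gap 3 bp), AT1G01990 (7 bp) and PPI1 (7 bp), which encode, for ABCF4, an ATP-binding cassette protein and, for PPI1, a protein that interacts with the plasma membrane proton pump. Just beyond the limit, the shared peak at AT1G70740 met its replicate 2 peak over 9 bp, the one near FIP1 over 13 bp and the one at PPH, a chlorophyll-breakdown enzyme, over 17 bp. In all, 21 peaks had a gap of at most 50 bp and 20 shared peaks had an overlap of at most 50 bp. Most shared peaks were not borderline, since 371 were covered whole and the median share covered was 93.8%.

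**Figure D1:**
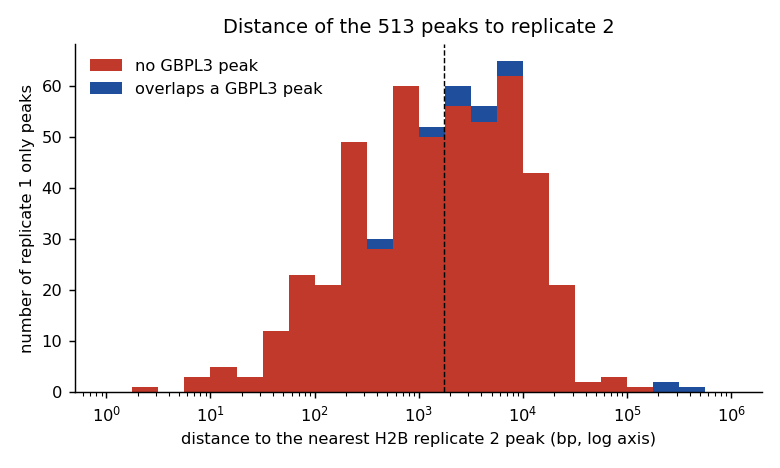
Distance from each of the 513 replicate 1 only peaks to the nearest H2B-GFP peak of replicate 2, on a log axis in bp, with the number of peaks in each bin on the vertical axis, those that overlap a GBPL3-GFP peak in blue and the median as a dashed line. The median is 1745 bp, and 207 peaks lie within 1 kb of a replicate 2 peak.

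The plot of gaps shows a broad distribution with a long right-hand end rather than a separate group of isolated peaks. The most isolated peak, with a gap of 494164 bp, lay at chr3:13590315-13590785 in the authors' TAIR10 coordinates, 6588 bp from the pseudogene AT3G33055. The next ones lay on chromosome 4, at the pseudogene AT4G06477 (244251 bp) and near the pseudogene AT4G06474 (237769 bp). All 3 of these peaks coincided with GBPL3-GFP peaks, which are described further on.

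The 513 peaks were spread over all 5 chromosomes. Their density was 4.01 per Mb on chromosome 1, 4.32 on chromosome 2, 4.86 on chromosome 3, 4.79 on chromosome 4 and 3.82 on chromosome 5. Chromosome 5 thus had the fewest per Mb, while it had the most shared peaks per Mb (8.19, against 6.21 to 7.8 elsewhere). It held 103 replicate 1 only peaks (20.1%) and 221 shared peaks (26.1%), a difference of -5.98 percentage points with a 95% interval from -10.4 to -1.33. For each of the other 4 chromosomes the interval of this difference included 0. Intervals of shares here are Wilson intervals and those of differences are Newcombe intervals. They cover counting error only and carry no p-value, because neighbouring peaks are not independent and the replicate 2 list helped to choose the peaks.

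Within 3 Mb of the approximate middle of a centromere lay 51 of the replicate 1 only peaks (9.94%) and 59 of the shared peaks (6.96%), while these regions make up 25.2% of the nuclear bases. The difference was 2.98 percentage points, with an interval from -0.00729 to 6.26. Most of it came from chromosome 3, where 15 replicate 1 only peaks (2.92% of the 513) and 6 shared peaks (0.708% of the 848) were pericentromeric, which gave 2.22 of the points. Chromosome 4, with 15 peaks against 19, added 0.683 and chromosome 5, with 8 against 9, added 0.498. The pericentromeres of chromosome 1 (6 against 11, -0.128) and chromosome 2 (7 against 14, -0.286) went slightly the other way. Of the 15 on chromosome 3, 10 overlapped GBPL3-GFP peaks. Among peaks farther than 10 kb from an rRNA gene, the pericentromeric difference was 1.53 percentage points, with an interval from -1.32 to 4.67. Only 1 peak of each set lay within 200 kb of a centromere middle.

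**Figure D2:**
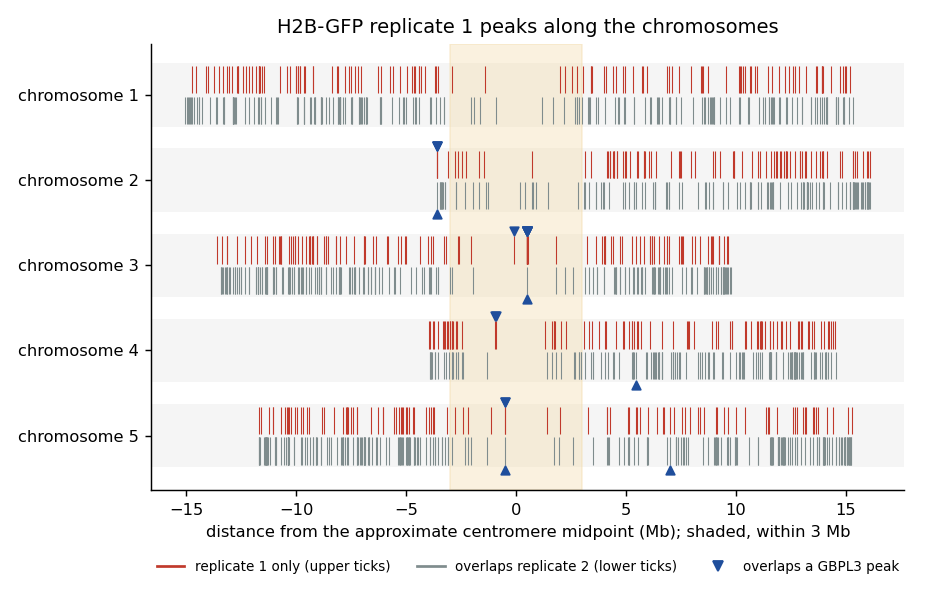
Positions of the replicate 1 only and shared H2B-GFP peaks along the 5 chromosomes, as distance in Mb from the approximate middle of each centromere, with the peaks that overlap a GBPL3-GFP peak marked. Both sets run along all arms, and 14 of the 17 marked replicate 1 only peaks lie within 3 Mb of a centromere middle.

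Near the chromosome ends the numbers were small, with 12 replicate 1 only and 20 shared peaks within 100 kb of an end. The replicate 1 only peaks nearest to an end were at AT2G01008, 1.25 and 2.5 kb from the start of chromosome 2, and at the rRNA gene AT2G01020, 5.52 kb from it. Others were at protein-coding genes, among them PAC, needed for chloroplast development (17.2 kb from the end, fold 1.76), UNE10, which encodes a basic helix-loop-helix factor (18.1 kb, fold 1.85), and DG1, a delayed greening gene (20.1 kb, fold 2.04). Farther in were VDAC1, a mitochondrial porin (86.6 kb, fold 1.79), and LAX1, an auxin influx carrier (98.6 kb, fold 1.92). AT5G01030 (11.2 kb), MEE50 (97.9 kb) and AT2G47850 (99.8 kb) also held such peaks.

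Joined across gaps of up to 50 kb, the 513 peaks formed 402 loci, of which 321 held a single peak, 62 held 2 and 14 held 3. The locus with the most, 10 peaks in 38.6 kb at chr3:14194666-14233301, contained rRNA genes. The 4 loci with 4 peaks each were on chromosome arms. At chr1:3409055-3442995 the peaks fell on AT1G10390, AT1G10410 and ARR4, a response regulator of cytokinin signalling, with folds from 1.78 to 2.07. At chr3:2930852-3017456 they fell on AT3G09540, HCF152, a chloroplast RNA-processing protein, AT3G09760 and AT3G09830, with folds from 1.78 to 2.22. A similar run lay at chr4:15080091-15163266, including the root-hair factor gene LRL2 (folds 1.76 to 2.17), and another at chr5:3950108-4031995, including SEC10, a subunit of the exocyst, and TPR16 (folds 1.52 to 2).

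The summits of 446 replicate 1 only peaks (86.9%) lay in protein-coding genes, which cover 54.1% of the nuclear bases. Among the shared peaks the share was 80.9% (686), a difference of 6.04 percentage points with an interval from 1.99 to 9.88. When a gap of up to 500 bp was counted as shared, this difference was 3.49, with an interval from -1.04 to 7.55. The remaining summits divided into 34 within 1 kb of a gene (6.63%), 13 in pseudogenes (2.53%), 11 in non-coding RNA genes (2.14%) and 9 farther from any gene (1.75%). The shared peaks had 10.1%, 4.48%, 0.825% and 3.66% in these classes. The interval of the difference lay below 0 for summits within 1 kb of a gene (-3.51, from -6.4 to -0.408) and for intergenic summits (-1.9, from -3.6 to -0.0221). It lay above 0 for non-coding RNA genes (1.32, from 0.0369 to 3.03), and it included 0 for pseudogenes (-1.95, from -3.87 to 0.177). Away from the rRNA genes the non-coding RNA difference was 0.0892, the intergenic one turned to 0.113 when flanks of 2 kb were counted, and that within 1 kb was -1.29 for flanks of 500 bp, each with an interval that included 0.

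**Figure D3:**
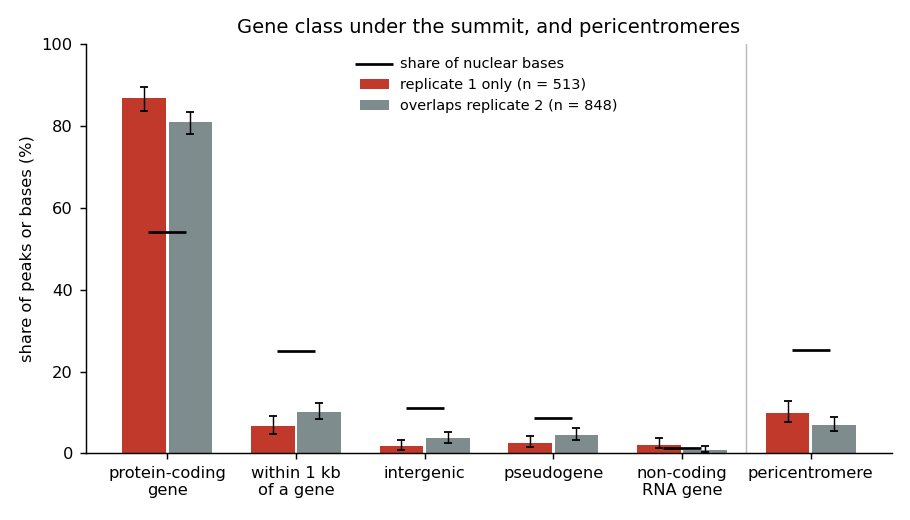
Share of summits, in percent of each set, by the annotation under the summit, and the pericentromeric share, for the 513 replicate 1 only and the 848 shared H2B-GFP peaks, with 95% Wilson intervals as error bars and the share of nuclear bases beside them. Protein-coding genes hold 86.9% and 80.9% of the summits and 54.1% of the bases.

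The plot of classes shows that both sets were far richer in genes than the sequence itself, and that the sets differed from each other by much less. The difference for protein-coding genes was found among the wider peaks. Of the peaks wider than 358 bp, 86.4% of the replicate 1 only and 76.8% of the shared summits were in protein-coding genes. Of the narrower ones the shares were 87.2% and 86.8%. Within the pericentromeric regions the shares were 47.1% and 47.5%.

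The 446 summits lay in 439 protein-coding genes, which were longer than most. The gene under the summit had a median length of 2998 bp (quartiles 2162 and 4304), against 2568 bp for the shared peaks and 2078 bp for all 27444 protein-coding genes. A longer gene offers more bases for a peak, and the part of length in the choice of genes was not tested. The summits were not gathered at gene ends: their median distance from the nearer end was 27.5% of the gene's length, against 28.7% for the shared peaks. Strand was not used, so start and end could not be told apart.

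For 199 of these 446 summits (44.6%) the same gene carried a replicate 2 peak elsewhere in its body, and for 247 (55.4%) it carried none. Among all protein-coding genes, 25.2% carried a replicate 2 peak. Their median length is 2078 bp, against 2998 bp for the genes under these summits, and length was not matched. In addition, 24 genes held both a replicate 1 only and a shared summit. The 6 genes with more than 1 replicate 1 only summit were singled out after their values were seen. VPS45, whose product acts in vesicle fusion, held 3 such peaks within chr1:28984650-28986558, with folds of 1.98, 1.75 and 1.96. ARF6, an auxin response factor, held 2 with folds of 1.67 and 1.96, and SPY, an O-fucosyltransferase that represses gibberellin signalling, held 2 with folds of 1.72 and 1.97. AT1G10390, AT3G13670 and AT2G01008 were the others. At ARF6, SPY and AT3G13670 the nearest replicate 2 peak was 6516 bp or more away.

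By fold, the replicate 1 only peaks were led by pseudogenes and a microRNA gene. The highest was at the transcribed pseudogene AT1G25209 (chr1:8831819-8832075), with a fold of 3.01 and a −log10 q of 11.1. It ranked 3 among all 1361 replicate 1 peaks, and the nearest replicate 2 peak was 13123 bp away. AT4G06477 followed with a fold of 2.6 and a −log10 q of 31.4, and then a peak 690 bp from MIR5660 with a fold of 2.44. Among protein-coding genes the highest was 4CL1, an enzyme of the phenylpropanoid pathway that leads to lignin and flavonoids (chr1:19159823-19160077, fold 2.38, −log10 q 4.85, gap 310 bp). AT2G17860 had the same fold of 2.38 to 2 decimals, with a −log10 q of 5.58.

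The next by fold were YSL8, of the Yellow Stripe-like metal transporter family (2.32), AT3G60590 (2.32), BLI, a protein that interacts with the Polycomb machinery (2.31), the pseudogene AT5G20800 (2.31), AT5G16590 (2.29), the zinc finger gene ZFP4 (2.26) and AT3G23310 (2.26). Apart from the first 3, none of the replicate 1 only peaks was among the 50 highest folds of the replicate 1 list. The widest were at AT5G20800 (837 bp), near MIR5660 (809 bp), at AT3G41762 (783 bp), near AT3G00560 (751 bp) and at KEA2, a potassium antiporter of the chloroplast envelope (720 bp).

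The order by −log10 q was different. The 5 highest values were 41.2 near the pseudogene AT5G29550, 32.1 near AT3G41762, 31.4 at AT4G06477, 30 at the rRNA gene AT3G41768 and 29.6 at the non-coding RNA gene AT3G06365. All 5 peaks coincided with GBPL3-GFP peaks, and their folds, 2.08, 1.97, 2.6, 1.86 and 1.86, were mostly unremarkable. Of the 20 replicate 1 peaks with the highest −log10 q, 10 were replicate 1 only.

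Overlap with GBPL3-GFP was more frequent among the replicate 1 only peaks. Over the whole replicate 1 list, 22 of 1361 peaks (1.62%) overlapped a GBPL3-GFP peak of either replicate by 1 bp or more. Of these, 17 were replicate 1 only peaks (3.31% of 513) and 5 were shared (0.59% of 848), a difference of 2.72 percentage points with an interval from 1.26 to 4.68. Read the other way, 77.3% of the 22 had no replicate 2 peak, against 37.7% of the list. All 17 lay whole inside a GBPL3-GFP peak of replicate 1 and whole inside one of replicate 2. They stood in only 5 loci, however, and counted as loci the overlap was 5 of 402 against 5 of 507. Of the 17, 14 were pericentromeric, which is 27.5% of the 51 pericentromeric replicate 1 only peaks, against 2 of 59 shared ones (3.39%). On the arms the shares were 3 of 462 and 3 of 789.

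Of the 17, 12 had a nuclear rRNA gene within 10 kb, and no replicate 1 only peak in that neighbourhood lacked a GBPL3-GFP peak. The 2 shared peaks within 10 kb of rRNA genes overlapped GBPL3-GFP too. Away from these genes 5 of 501 replicate 1 only peaks (0.998%) and 3 of 846 shared peaks (0.355%) overlapped GBPL3-GFP, and the interval of that difference ran from -0.247 to 1.98. Such genes occur in many near-identical copies, so reads cannot be assigned to a copy with certainty, and how the authors' alignment treated them is not given in the sources used here.

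The rRNA cluster of chromosome 3 held 9 of the 17. From left to right, the peak at chr3:14194666-14194913 near AT3G41762 had a fold of 1.97, and that at chr3:14195353-14196135 in the same gene 1.19. The peak at chr3:14197243-14197594, 218 bp from MIR5642a, had a fold of 1.17, the lowest of all 513. Within the rRNA gene AT3G41768 the peaks at chr3:14198027-14198301 and chr3:14198877-14199132 had folds of 1.86 and 1.75. High and low folds thus alternated over a few kb, and every one of these peaks lay inside a GBPL3-GFP peak. The run ended with 1.29 at AT3G06355 and 1.86, 1.29 and 1.21 at AT3G06365. In the same gene, a peak at chr3:14203718-14204017 with a fold of 2.02 and a −log10 q of 30.1 was shared, its replicate 2 counterpart having a fold of 1.81.

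**Figure D4:**
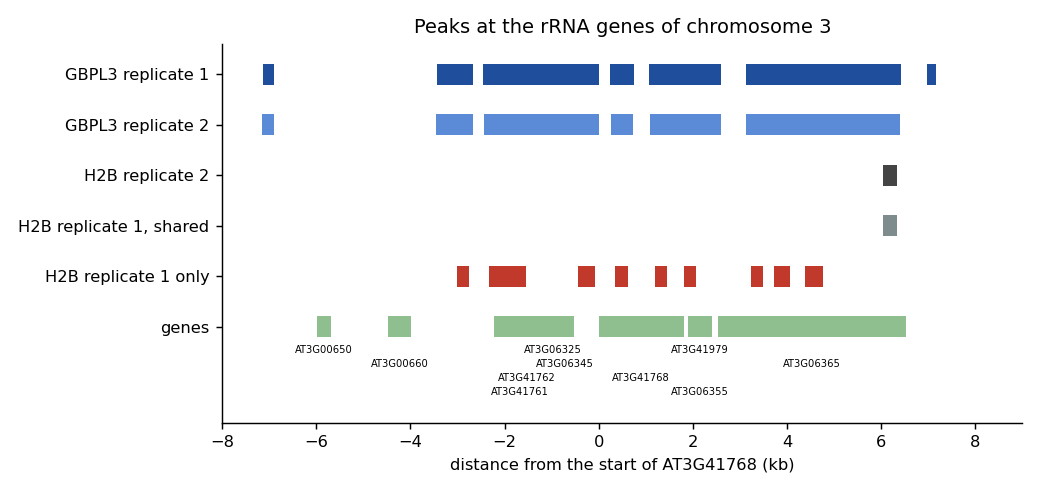
Peaks of the 4 lists across the rRNA gene cluster of chromosome 3, drawn to scale as distance in kb from the left end of the rRNA gene AT3G41768 with the annotated genes below. The 9 replicate 1 only H2B-GFP peaks all sit inside broad GBPL3-GFP peaks of both replicates, and replicate 2 of H2B-GFP has 1 peak there.

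At the start of chromosome 2, 3 more of the 17 flanked or lay in rRNA genes. The peaks at chr2:1246-1514 and chr2:2504-2923 in AT2G01008 had folds of 1.71 and 1.43, and that at chr2:5520-5915 in AT2G01020 had 1.23. A shared peak, chr2:3320-3707 near AT2G01010, lay between them with a fold of 1.55. Counting a distance of up to 1 kb, all 4 rRNA genes of the gene table had a replicate 1 only peak.

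The other 5 were outside the rRNA genes. All were pericentromeric, and for all of them the nearest annotated gene was a pseudogene. The isolated peak on chromosome 3 near AT3G33055 had a fold of 1.18 and a −log10 q of 1.54. On chromosome 4, chr4:3054453-3054918 near AT4G06474 had a fold of 1.62, and chr4:3060935-3061193 in AT4G06477 had 2.6, the highest of the 17. On chromosome 5, chr5:11184945-11185195 and chr5:11185570-11185862 near AT5G29550 had folds of 1.83 and 2.08, with a shared peak of fold 1.4 beside them.

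In the GBPL3-GFP lists the peaks that contained these 17 had folds from 7.02 to 14.2 in replicate 1 (median 11.8) and from 5.12 to 9.31 in replicate 2 (median 7.59). The medians are taken over the 17, so a GBPL3-GFP peak that contained several of them counts several times. The H2B-GFP folds of the 17, from 1.17 to 2.6, were lower throughout. Folds from separate peak calls of different pulldowns are set side by side here as the authors' values and were not scaled to each other. Replicate 1 only peaks touched 13 of the 87 GBPL3-GFP peaks of replicate 1 (14.9%) and 13 of the 81 of replicate 2 (16%). Peaks of H2B-GFP replicate 2 touched fewer, 6 (6.9%) and 7 (8.64%), although that list was the longer one. Neighbouring GBPL3-GFP peaks are counted singly here, and the replicate 1 only peaks that touched GBPL3-GFP stood in only 5 loci.

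The 17 also differed from the other 496 in how fold and −log10 q went together. The 496 had folds from 1.52 to 3.01 and a median −log10 q of 1.97, whereas the 17 had a median of 14.4. All 8 replicate 1 only peaks with a fold below 1.5 overlapped GBPL3-GFP. Among the peaks with a fold from 1.8 to 2.1, the 5 that overlapped GBPL3-GFP had −log10 q values from 27 to 41.2, and the 249 that did not had values from 1.6 to 3.54, so the groups did not overlap. Shared peaks in that fold range showed the same division, with 30.1 for the 1 that overlapped GBPL3-GFP and at most 5.1 for the 416 others. A −log10 q grows with the number of reads at a given fold, but read depth at the peaks is not in the lists, and its part in these values was not tested. In H2B-GFP replicate 2, the 9 peaks that overlapped GBPL3-GFP had a median −log10 q of 5.38 at a median fold of 1.81, against 2.62 at 1.76 for the other 8599.

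**Figure D5:**
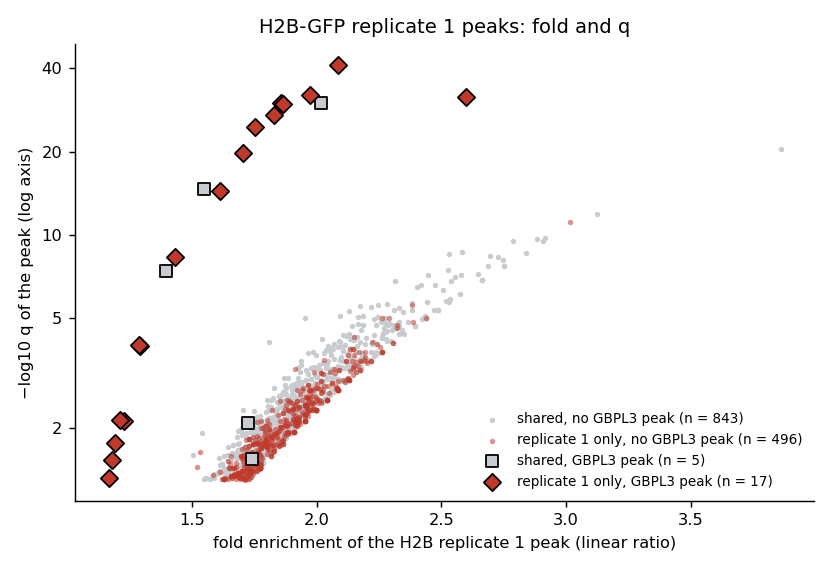
Fold enrichment against −log10 q (log axis) for the H2B-GFP peaks of replicate 1, as the authors' peak caller gave them, with peaks that overlap a GBPL3-GFP peak marked. Most marked peaks lie above the main cloud at their fold or to the left of it. The 5 marked replicate 1 only peaks with folds of 1.8 to 2.1 have −log10 q from 27 to 41.2.

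The plot of fold against −log10 q shows the 496 and the shared peaks without GBPL3-GFP in the same cloud. Of the 22 peaks with GBPL3-GFP, 20 lay above the cloud at their fold or to the left of it. For these 20, no peak without GBPL3-GFP of equal or lower fold reached the same −log10 q. Below a fold of 1.5 there was no peak without GBPL3-GFP to compare, so this held there by default. That range held 8 of the replicate 1 only peaks, with −log10 q from 1.33 to 8.33, and 1 shared peak, with 7.43. The other 2 of the 22, shared peaks at AT4G16820 and AT5G46070, lay in the cloud. Of the 10 replicate 1 only peaks with a −log10 q of at least 10, 9 overlapped GBPL3-GFP. The exception was the pseudogene AT1G25209.

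The 11 summits in non-coding RNA genes fell into the same division. Of these, 7 were in the rRNA clusters. The other 4 were at AT3G13277 (fold 2.01), AT1G07293 (1.85), AT3G00900 (1.82) and GUT15 (1.73), and none of the 4 overlapped GBPL3-GFP. In pseudogenes, 12 of the 13 summits had no GBPL3-GFP peak, and after AT1G25209, AT4G06477 and AT5G20800 the highest folds were at AT3G28157 (2.2) and AT2G41745 (2.05). MUG8, a gene of the Mustang family derived from a transposase, had a fold of 2.02 at a distance of 128525 bp from the nearest replicate 2 peak. Intergenic summits included those near TRM15 (fold 2.26), near P5CS1, the proline synthesis enzyme (2.04), and near IDL2, a peptide ligand gene (1.78).

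Gene groups were lists made by gene type, symbol or identifier, so a family can have genes outside its list. They were counted by whether a replicate 1 only summit lay in a gene or within 1 kb of it, which held for 703 of the 37899 nuclear genes (1.85%). The same held for 1083 genes (2.86%) with the shared peaks. None of the 125 MYB, 99 NAC, 47 AP2/ERF, 33 ribosomal protein or 369 snRNA and snoRNA genes listed had a replicate 1 only peak. The 115 genes of the mitochondrial insert on chromosome 2 had none either. For the smaller of these groups a count of 0 is near the 1.85% of all genes. Of the 47 AP2/ERF genes listed, 5 (10.6%) had a shared peak, against the 2.86% of all genes. AP2/ERF genes outside the list were not counted, so these counts do not describe the family. Of 625 tRNA genes, 2 (0.32%) had a replicate 1 only peak, and of 4843 pseudogenes, 26 (0.537%).

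Some groups had shares above 1.85%, each from 1 or 2 genes apart from the 4 rRNA genes. Among 25 histone genes, 2 (8%) had a peak: HTB9, which encodes an H2B histone (fold 1.82, −log10 q 1.75), and HTA9, which encodes an H2A.Z variant (1.69, −log10 q 1.36). Among 18 nuclear envelope genes 1 (5.56%) had a peak, SUN1, which encodes a protein of the inner nuclear membrane (fold 1.72), and none of the 3 guanylate-binding genes had such a peak, though AT5G46070 had a shared one. In the photosynthesis group, PSBY, a small subunit of photosystem II (1.74), and LHCB4.3, an antenna protein (1.71), were 2 of 50 (4%). The remaining groups gave WRKY28 (1.91) of 72 WRKY genes, LCR54 (2) of 87 defensin-like genes, ARF6 and AT3G12955 of 134 auxin response genes, and the retroelements SADHU1-2 (1.76) and SADHU5-1 (1.95) of 17 transposable element genes (11.8%). No gene of the 22 bHLH, 26 heat shock, 31 F-box or 7 NCED genes listed had a replicate 1 only peak. These lists do not hold whole families. UNE10, the basic helix-loop-helix factor named above with a replicate 1 only peak, is not in the bHLH list. With so few genes a group, these counts are descriptions and show no difference between groups.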

How the data were processed

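The 4 peak lists deposited by the authors were used, 2 each for H2B-GFP and GBPL3-GFP. The submitters' processing notes name MACS2 2.1.0, the aligner BWA 0.7.12 and the TAIR10 build. Options and control are not given in the labels, and the depth behind a peak is unknown. Replicates were listed separately. The deposited columns are a score (10 times −log10 q), a fold (ratio) over the caller's background, −log10 p and −log10 q, and the summit offset; scores and −log10 p were not used in results. Lines with equal coordinates but several summits (1634 and 11688 lines for H2B-GFP replicates 1 and 2) were joined into intervals, with the largest fold and −log10 q among their lines; the summit used was that of the largest −log10 q.

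Genes came from a RefSeq table of assembly TAIR10.1 without strand or exons, of which no coordinate is printed. Because builds are named differently, fit was checked: 91.2% to 93.6% of replicate 2 summits lay in protein-coding genes per chromosome, and 59.2% to 69.1% after moving them by 5 to 50 kb. A summit was assigned to a protein-coding gene where it lay in one, otherwise to a gene for a non-coding RNA, a pseudogene or the flank of up to 1 kb, and else to intergenic sequence. Peaks were named by rank of fold (12), −log10 q (5) and width (5), by GBPL3-GFP overlap, gap to the rule's limit, locus size, chromosome end and gene list. The peaks, the 22 lists and the rules were chosen with earlier results of these data known. The scripts, in Python 3.11.15 with pandas 2.3.3, were tested on simulated data. Results for 1 gene list and 1 peak are not reported here. Alternatives are given in the closing section.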

Additional observations from a re-analysis of the deposited data

How the results depend on the processing

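Peaks within a list are not replicates, so no test was possible over samples, and a difference is said to pass here when its 95% interval leaves out 0. Of 60 alternatives for the differences, 35 kept the direction and also whether the difference passed. In 16 a difference that had passed no longer did, in 7 one that had not passed did, and in 2 the direction reversed. The number of replicate 1 only peaks stayed within 1.5 times its value under 4 alternatives. Requiring a −log10 q of at least 2 in replicate 1 left 257 replicate 1 only peaks. The pericentromeric difference passed with regions of 2 Mb (2.59) or 5 Mb (6.26). On chromosomes 2 and 4 the 5 Mb regions reach a chromosome end, so that setting is not limited to pericentromeres. The difference also passed with sharing defined as 50% covered (3.45) or a gap up to 500 bp (4.08), and at −log10 q of at least 2 (4.55). It was 1.53 and did not pass away from rRNA genes. The protein-coding difference no longer passed among narrow peaks (0.421) or with the 500 bp gap (3.49). That of non-coding RNA genes did not pass on the arms (0.359), with 50% covered (0.72) or away from rRNA genes (0.0892). The pseudogene difference passed on the arms (-2.54) and with 50% covered (-2.72), and turned to 0.675 among narrow peaks. For summits in the 1 kb flanks it did not pass with a 500 bp flank (-1.29), among narrow peaks (-1.8) or with the 500 bp gap (-2.12). The intergenic one turned to 0.113 with a 2 kb flank and did not pass by peak midpoint (-1.62), among narrow peaks (-1.39), with 50% covered (-1.77), with the 500 bp gap (-1.82), at −log10 q of at least 2 (-2.06) or away from rRNA genes (-1.87). The GBPL3-GFP difference did not pass away from rRNA genes (0.643) or by locus (0.258), and was 2.72 to 2.84 without either GBPL3-GFP replicate. The cause of these changes was not tested. The rRNA alternatives for position and class, and the overlap and −log10 q alternatives for GBPL3-GFP, were chosen after seeing the data. Leaving out an H2B-GFP replicate was not run, because both lists choose the peaks. No paired analysis was possible because the comparison splits a single list and no test over samples was made.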
